A study of Mus musculus with 67 samples.

Results

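Leukocyte recruitment chemokines and adhesion molecules were followed through 4 sampling times in mouse retina and retinal pigment epithelium (RPE). The group holds 8 genes, taken for their known function, with earlier results of these data known. They are the chemokines Ccl2, Ccl7, Cxcl1, Cxcl10, Cxcl12 and Cxcl16 and the endothelial and glial adhesion molecules Icam1 and Vcam1. Members were found by matching the Ensembl identifiers of the deposited expression tables to these symbols. Of the 8, 6 were read among the 16930 genes of the retina table (Ccl2, Cxcl10, Cxcl12, Cxcl16, Icam1 and Vcam1) and 5 among the 16714 genes of the RPE table (the same genes without Ccl2). Ccl7 and Cxcl1 in both tissues, and Ccl2 in RPE, were not analysed here.

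Leukocytes leave the blood in steps. Chemokines are small secreted proteins that bind G protein-coupled receptors on leukocytes, direct their migration and switch their integrins to the binding state, and Icam1 and Vcam1 on the vessel wall are the surfaces that those integrins grip. In the retina such genes are induced by inflammatory cytokines in Muller glia, vascular cells, microglia and the RPE, which together guard a tissue that holds few leukocytes when healthy.

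The RNA data comprised 33 libraries, each from 1 mouse; the labels do not say which retina and RPE libraries, if any, came from the same mouse. The groups NB, 6h, 1d and 3d held 6, 3, 4 and 4 retina libraries and 5, 3, 4 and 4 RPE libraries. Every group carried the same genotype, abca4-/- rdh8-/-, and the mice are described as photosensitive. Abca4 encodes a retinoid transporter of photoreceptor discs and Rdh8 a photoreceptor retinol dehydrogenase, both of which clear retinal released from bleached opsin. There was no group without these alleles among the RNA libraries, so what the genotype itself does to the genes below cannot be told from them. NB served as the baseline. The labels do not say what these letters stand for, and they give neither the event from which 6h, 1d and 3d count nor the age or sex of the mice. Both eyes of 1 mouse were pooled into a sample, and RPE cells were shaken off the eyecup in a stabilising solution before the choroid was lifted out.

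Sequencing depth split the libraries. In retina the 6h libraries and NB A1 and A2 held 22.6 to 32.4 M reads and the 12 others 9.45 to 15.2 M, and in RPE the 6h libraries and NB A1 held 23.1 to 26.8 M and the 12 others 11.5 to 14.4 M. All 6h libraries were therefore deeper and all 1d and 3d libraries shallower (called the deeper and the shallower set here), so that depth and time cannot be told apart in 1d against 6h. The NB libraries are named A or B by the form of their column names, with or without a point before the number. All A libraries fell in the deeper and all B libraries in the shallower set. The 6h column names also differ in form from those of 1d and 3d. What these forms stand for is not given, so anything else that goes with them cannot be told apart from depth. Markers set the tissues apart: the 6 RPE markers summed to 3709 to 17600 CPM (reads scaled by library size) in RPE libraries and the 5 of them read in retina to 173 to 498 CPM there, and the 6 rod markers summed to 2479 to 12124 CPM in RPE libraries and 15347 to 60162 CPM in retina libraries. The RPE libraries also held markers of other cell types. The 7 pericyte and fibroblast markers summed to 255 to 747 CPM there, against 106 to 187 CPM for the 6 read in retina. The 6 T cell markers read in RPE libraries summed to 5.44 to 29.3 CPM. All 5 surface epithelium markers (Krt5, Krt12, Krt14, Krt15 and Trp63, genes of cornea, conjunctiva and skin) were read there and summed to 10262 to 46825 CPM, with group medians above those of the RPE markers in all 4 groups, against 1.59 to 11.95 CPM for the 3 of them read in retina. Reads of the genotype genes were present in all groups, with Abca4 at 357 to 928 CPM in retina, and since the deleted parts are not given, these levels do not check the labels.

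The promoters of 3 members are shown, the members with expression values below for which a promoter sequence was available. They are Icam1 and Cxcl10, which rose steeply in retina, and Cxcl12, whose changes were small. Each line is the 250 bases before the annotated start, from RefSeq on GRCm38.p6, written 5′ to 3′ in the direction of the gene: Icam1 chr9:21015690-21015939 (plus strand), Cxcl10 chr5:92348890-92349139 (minus strand) and Cxcl12 chr6:117168285-117168534 (plus strand). Capitals mark a kappaB core (GGAANTTCC, the recognition letters of NF-kappaB factors, chosen after the sequences had been read) and an interferon-stimulated response element core (GAAANNGAAA), both searched on both strands (the kappaB core reads the same on either).
Icam1: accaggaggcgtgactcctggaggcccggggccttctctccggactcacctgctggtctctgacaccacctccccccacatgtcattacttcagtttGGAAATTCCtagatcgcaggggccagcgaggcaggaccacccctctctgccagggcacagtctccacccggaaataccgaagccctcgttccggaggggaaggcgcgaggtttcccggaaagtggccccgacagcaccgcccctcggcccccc
Cxcl10: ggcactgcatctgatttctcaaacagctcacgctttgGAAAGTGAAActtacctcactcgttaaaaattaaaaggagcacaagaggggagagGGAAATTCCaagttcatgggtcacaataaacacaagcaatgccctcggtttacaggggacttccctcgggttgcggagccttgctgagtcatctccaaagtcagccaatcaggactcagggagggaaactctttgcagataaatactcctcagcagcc
Cxcl12: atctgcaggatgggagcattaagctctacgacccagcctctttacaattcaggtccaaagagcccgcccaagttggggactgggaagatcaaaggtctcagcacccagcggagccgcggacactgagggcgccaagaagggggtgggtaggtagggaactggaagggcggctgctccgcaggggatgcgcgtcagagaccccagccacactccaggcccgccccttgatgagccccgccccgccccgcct
The kappaB core lay at -153 to -145 from the start in Icam1 and at -158 to -150 in Cxcl10, and 0.813% of 32851 promoters of this length held it. Cxcl10 also held the interferon element core at -213 to -204, present in 2.98% of promoters, and an AP-1 motif (TGANTCA) at -74 to -68, present in 6.75%. In the Icam1 window no interferon element core and no AP-1 motif matched, and in the Cxcl12 window neither core and no AP-1 motif matched. Another kappaB pattern, longer than the core and not a relaxed form of it, was present in 23.2% of promoters. It matched 1 time in Icam1 at -120 to -111, apart from the core, 3 times in Cxcl10 and 0 times in Cxcl12. In Cxcl10 1 match overlapped the core and the others overlapped each other. TATAAA, present in 12.4%, matched in none of the 3. These matches describe letters, not occupied sites. The promoter of Cxcl1, a member whose expression was not analysed here, also held the kappaB core, at -70 to -62. Promoters of Ccl2, Cxcl16 and Vcam1 were missing from the promoter sequences used, so a match of motif with response cannot be read from these genes.

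In retina, 4 of the 6 members read rose at every sampling time against NB. Icam1 and Ccl2 were high by 6h, Cxcl10 peaked at 1d, Vcam1 was highest at 1d and 3d, and Cxcl16, which was lower at 6h, rose at 3d. Cxcl12 was higher at 6h and 1d by a small margin and had no call at 3d. Folds of mean CPM at 6h against NB ran up to 21.6 for Icam1, and at 1d against NB to 39.2 for Cxcl10, or 101 without NB A2, the library that sets its NB mean. Ccl2 is left aside here, since its NB level rested on 2 reads.

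Against NB, 5 members were called higher and 1 lower at 6h, 5 higher at 1d and 5 higher at 3d, by limma on log2(CPM + 0.5) with Benjamini-Hochberg adjustment over all genes tested and a threshold of 0.05. Only genes at 1 CPM or more in at least 3 libraries were tested. Icam1, Cxcl10 and Ccl2 reached at most 0.918, 0.664 and 0.0918 CPM in NB. They thus passed this filter only through the later groups, which favours a rise against NB, so their part in these counts is no independent support. Calls were common in this tissue. The share of all 16926 genes called was 35.4% at 6h (16.9% higher, 18.5% lower), 51.5% at 1d (24.0% higher) and 43.2% at 3d (19.3% higher). Scaled to library totals, 74.3% of all called genes were higher at 1d and 77.0% at 3d, against 46.5% and 44.6% with the scaling used here, and totals shifted the median of all genes by 0.16 and 0.14 on the log2 scale. The median log2 fold change of the 6 members was 1.39 at 6h, 2.12 at 1d and 0.79 at 3d, while that of all genes lay within 0.02 of 0 at each time. Since members were chosen with earlier results of these data known, neither this contrast nor the counts are independent support.

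**Figure D1:**
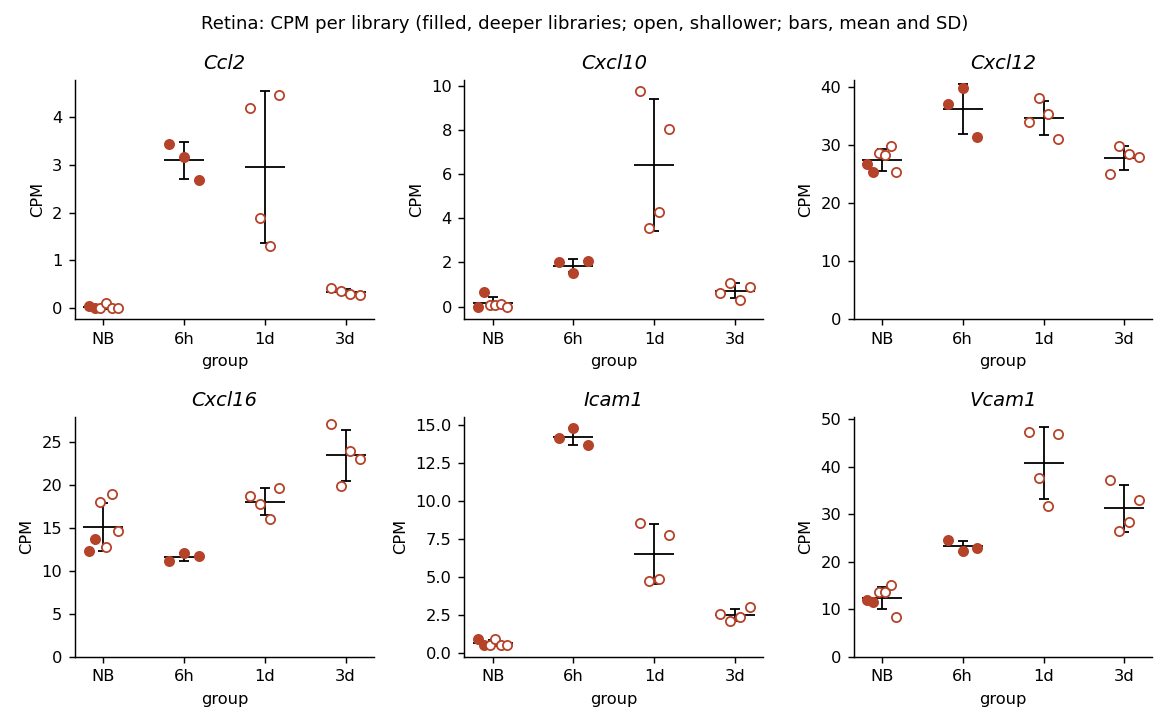
CPM of the 6 members read in retina, per library, against sampling group; filled points are deeper and open points shallower libraries, and bars give the mean and SD. Icam1 fell off after 6h (means 14.2, 6.50 and 2.51 CPM at 6h, 1d and 3d), Cxcl10 peaked at 1d (6.42 CPM) and Cxcl16 was highest at 3d (23.5 CPM).

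Ccl2 (ENSMUSG00000035385, chr11:82035577-82037452 on GRCm38.p6) encodes the ligand of Ccr2, the receptor by which inflammatory monocytes home to tissue. In NB retinas its lowest, median and highest levels were 0, 0 and 0.0918 CPM, with 1 read in each of NB A1 and NB B2 and none in the other 4 libraries, and at 6h it stood at 3.45, 3.17 and 2.69 CPM. At 1d it stood at 4.19, 1.89, 1.31 and 4.47 CPM and at 3d at 0.416, 0.358, 0.286 and 0.276 CPM. The 3 later groups all lay above every NB library, 6h and 1d overlapped, and 3d lay below both. From 251 reads at 6h and 2 in NB, the ratio of CPM was 160, with an exact 95% interval of 43.9 to 1331 that covers counting error only. The same ratio was 156 (42.4 to 1303) at 1d and 17.4 (4.201 to 154) at 3d. The fitted log2 fold changes depend on the added 0.5 CPM and stood at 2.79 ± 0.24 (SE, adjusted p = 5.78e-08) at 6h, 2.61 ± 0.22 (adjusted p = 1.16e-08) at 1d and 0.68 ± 0.22 (adjusted p = 0.0190) at 3d. The 3d call did not hold with 2 CPM added (adjusted p = 0.239) or without 3d library 1 (adjusted p = 0.0532). Between sampling times Ccl2 did not pass at 1d against 6h (-0.18 ± 0.26, adjusted p = 0.641) and fell at 3d against 1d (-1.93 ± 0.24, adjusted p = 1.01e-05).

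Cxcl10 (ENSMUSG00000034855, chr5:92346638-92348889) encodes an interferon-induced chemokine that binds Cxcr3 on activated T cells and natural killer cells. Its lowest, median and highest levels in NB retinas were 0, 0.0900 and 0.664 CPM, and at 6h it stood at 2.00, 1.50 and 2.05 CPM. At 1d its levels were 9.79, 3.57, 4.27 and 8.03 CPM, and at 3d 0.625, 1.07, 0.286 and 0.898 CPM. Each 1d library was above each 6h library and each 6h library above all of 3d and NB, while 3d overlapped NB through NB A2, which held 20 of the 24 NB reads. By reads, the ratio to NB was 7.93 (5.13 to 12.8) at 6h, 28.1 (18.5 to 44.6) at 1d and 3.13 (1.85 to 5.42) at 3d. Without NB A2, an alternative chosen after seeing the data, 4 NB reads remained and the ratios were 33.8 (12.9 to 126), 120 (46.3 to 443) and 13.4 (4.84 to 51.3), so that 1 library decides their size. The log2 fold change against NB was 1.88 ± 0.30 (adjusted p = 7.31e-05) at 6h, 3.34 ± 0.27 (adjusted p = 6.58e-09) at 1d and 0.90 ± 0.27 (adjusted p = 0.0123) at 3d. Without NB A2 these were 2.06, 3.52 and 1.07, values that the added 0.5 CPM holds down. The 3d call was lost with 2 CPM added (adjusted p = 0.110), with edgeR (adjusted p = 0.0536) and without 3d library 2 (adjusted p = 0.0509). Cxcl10 rose at 1d against 6h by 1.46 ± 0.32 (adjusted p = 0.00159, and 0.0540 with DESeq2) and fell at 3d against 1d (-2.44 ± 0.30, adjusted p = 7.17e-06).

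Cxcl12 (ENSMUSG00000061353, chr6:117168535-117181368) is a constitutive chemokine of stromal, vascular and neural cells that signals through Cxcr4. It spanned 25.3 to 29.9 CPM in NB retinas with a median of 27.5 CPM, and was 37.1, 39.8 and 31.4 CPM at 6h. At 1d it was 34.0, 38.1, 35.2 and 31.0 CPM and at 3d 24.9, 29.9, 28.5 and 27.9 CPM. The 6h and 1d libraries overlapped each other and lay above all NB libraries, and 3d overlapped NB. The changes were small against the other members: 0.39 ± 0.08 (adjusted p = 0.000971) at 6h, 0.33 ± 0.07 (adjusted p = 0.000947) at 1d and 0.02 ± 0.07 (adjusted p = 0.845) at 3d on the log2 scale. It fell at 3d against 1d (-0.31 ± 0.08, adjusted p = 0.00911).

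Cxcl16 (ENSMUSG00000018920, chr11:70454389-70459984) is made as a transmembrane protein that can hold Cxcr6-bearing lymphocytes, and as a shed chemokine. Its NB levels ran from 12.3 to 19.0 CPM with a median of 14.2 CPM, and its 6h levels were 11.1, 12.1 and 11.7 CPM. At 1d it was read at 18.7, 17.8, 16.1 and 19.7 CPM and at 3d at 27.1, 19.9, 23.9 and 23.1 CPM. Every 6h library lay below all others and every 3d library above all others, while 1d overlapped NB. The log2 fold change was -0.34 ± 0.12 (adjusted p = 0.0364) at 6h, 0.27 ± 0.11 (adjusted p = 0.0523) at 1d and 0.64 ± 0.11 (adjusted p = 0.000155) at 3d. The 6h call was fragile. It was lost in the deeper libraries alone (-0.15, adjusted p = 0.489), with library totals (adjusted p = 0.0707), with the 2 groups fitted alone (adjusted p = 0.0571), without any of the 3 6h libraries (adjusted p = 0.0648 to 0.125), without NB B1 (adjusted p = 0.0746) and without NB B3 (adjusted p = 0.0732). The 1d value passed with library totals (0.43, adjusted p = 0.00391), with DESeq2 (adjusted p = 0.0366) and without NB B1 (adjusted p = 0.0218), NB B3 (adjusted p = 0.0116) or 1d library 3 (adjusted p = 0.0333). Cxcl16 rose at 1d against 6h (0.61 ± 0.13, adjusted p = 0.00130) and was called higher at 3d against 1d (0.37 ± 0.12, adjusted p = 0.0381), a call that ended with library totals (adjusted p = 0.0560), under the replicate block (adjusted p = 0.0529) and without any of 1d libraries 1, 2 and 3 or 3d libraries 1, 3 and 4 (adjusted p = 0.0542 to 0.121).

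Icam1 (ENSMUSG00000037405, chr9:21015940-21028814) is the immunoglobulin-family ligand of the beta2 integrins LFA-1 and Mac-1, which arrest rolling leukocytes. In NB retinas it ran from 0.529 to 0.918 CPM with a median of 0.544 CPM, and at 6h it stood at 14.2, 14.8 and 13.7 CPM. It was 8.57, 4.76, 4.89 and 7.78 CPM at 1d and 2.57, 2.08, 2.36 and 3.04 CPM at 3d. No 2 groups overlapped: every 6h library was above every 1d library, these above every 3d library and these above NB. Mean levels were 14.2 ± 0.554 CPM at 6h and 0.660 ± 0.190 CPM in NB (SD, n = 3 and 6). The log2 fold change against NB was 3.68 ± 0.18 (adjusted p = 1.82e-11) at 6h, 2.57 ± 0.16 (adjusted p = 2.34e-10) at 1d and 1.38 ± 0.16 (adjusted p = 2.50e-06) at 3d. Icam1 also fell between successive times, with log2 changes of -1.117 ± 0.19 at 1d against 6h (adjusted p = 0.000154) and -1.18 ± 0.18 at 3d against 1d (adjusted p = 7.25e-05). By 3d the mean excess over NB was 13.6% of that at 6h.

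Vcam1 (ENSMUSG00000027962, chr3:116110020-116129688) is the ligand of the integrin VLA-4 (Itga4 with Itgb1) on monocytes and lymphocytes. It ran from 8.45 to 15.1 CPM in NB retinas with a median of 12.8 CPM, and was 24.5, 22.3 and 22.8 CPM at 6h. At 1d it was 47.3, 37.5, 31.7 and 46.8 CPM and at 3d 37.2, 26.4, 28.3 and 32.9 CPM. All later libraries lay above all NB libraries, and 1d and 3d overlapped each other above 6h. At 3d its mean excess over NB was 66.2% of that at 1d. Its log2 fold change was 0.90 ± 0.15 (adjusted p = 0.000120) at 6h, 1.68 ± 0.14 (adjusted p = 6.16e-09) at 1d and 1.31 ± 0.14 (adjusted p = 6.40e-07) at 3d. Vcam1 rose at 1d against 6h (0.78 ± 0.16, adjusted p = 0.000855). At 3d against 1d its value was -0.38 ± 0.15 (adjusted p = 0.0839), which passed with DESeq2 (adjusted p = 0.0303), without 1d library 3 (adjusted p = 0.0240) and without 3d library 1 (adjusted p = 0.0471).

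Between successive times in retina, 3 members were called higher and 1 lower at 1d against 6h, where 35.0% of all genes were called (17.5% in each direction), and 1 higher and 4 lower at 3d against 1d, where 21.4% were called (9.79% higher, 11.6% lower). With library totals, 75.3% of the genes called at 1d against 6h were higher, against 49.9%, and the median of all genes shifted by 0.13. Within 1 depth set, which gives 6h against NB A1 and A2 and 1d and 3d against NB B1 to B4, log2 fold changes at 6h were 3.62 for Icam1, 2.79 for Ccl2, 1.62 for Cxcl10, 0.94 for Vcam1 and 0.46 for Cxcl12, and all 5 passed. At 1d they were 3.48 for Cxcl10, 2.60 for Ccl2 and Icam1, 1.66 for Vcam1 and 0.30 for Cxcl12, and at 3d 1.41 for Icam1, 1.28 for Vcam1, 1.03 for Cxcl10, 0.67 for Ccl2 and 0.54 for Cxcl16, all past the threshold. In bulk tissue, more RNA per cell and more cells of a producing type cannot be told apart, in these or the following results.

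In RPE libraries, of the 5 members read, only Vcam1 at 1d against NB was called. It stood at 13.7, 10.9, 9.81, 6.06 and 9.90 CPM in NB (A1, then B1 to B4) and 12.3, 18.8 and 15.6 CPM at 6h. At 1d it was 26.3, 14.9, 27.7 and 15.2 CPM and at 3d 13.6, 20.0, 13.2 and 16.5 CPM. Every 1d library exceeded every NB library, with libraries 1 and 3 well above 2 and 4. Vcam1 averaged 21.0 ± 6.90 CPM at 1d and 10.1 ± 2.74 CPM in NB (SD, n = 4 and 5), a log2 fold change of 1.01 ± 0.23 (adjusted p = 0.0183). This call ended without 1d library 1 (0.89, adjusted p = 0.0649), without 1d library 3 (0.86, adjusted p = 0.0521) and with the 2 groups fitted alone (adjusted p = 0.0593). At 6h and 3d its values were 0.62 ± 0.25 (adjusted p = 0.207) and 0.65 ± 0.23 (adjusted p = 0.388).

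**Figure D2:**
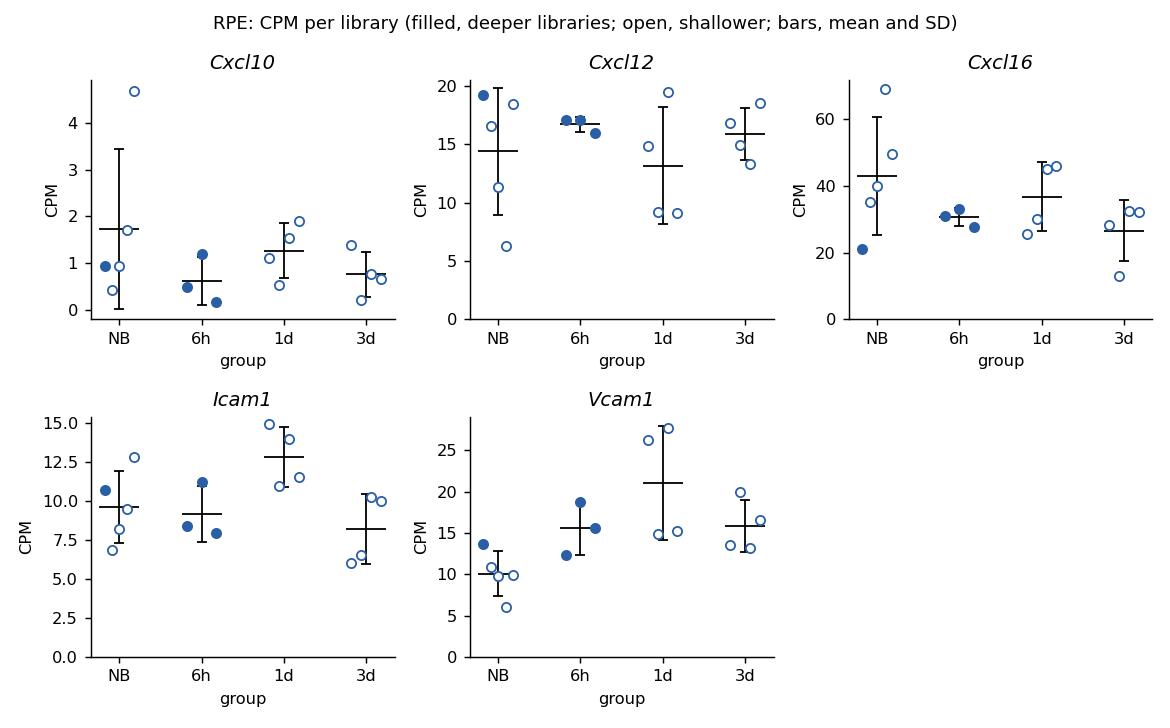
CPM of the 5 members read in RPE, per library, against sampling group; filled points are deeper and open points shallower libraries, and bars give the mean and SD. Vcam1 lay between 14.9 and 27.7 CPM at 1d, above the NB range of 6.06 to 13.7 CPM, and the groups of the other 4 members overlapped NB.

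Icam1 in RPE was already read at 10.7, 6.85, 8.16, 9.47 and 12.8 CPM in NB and stood at 8.38, 11.2 and 7.91 CPM at 6h. It was 14.9, 10.9, 13.97 and 11.5 CPM at 1d and 6.02, 6.52, 10.3 and 9.97 CPM at 3d. All groups overlapped NB, and 1d lay above 3d without overlap. Its values against NB were -0.05 ± 0.21 (adjusted p = 0.936) at 6h, 0.42 ± 0.20 (adjusted p = 0.230) at 1d and -0.22 ± 0.20 (adjusted p = 0.706) at 3d, and at 3d against 1d -0.64 ± 0.21 (adjusted p = 0.0716, and 0.0367 with DESeq2).

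Cxcl16 in RPE spread widely among NB libraries, at 21.2, 35.3, 39.9, 69.1 and 49.7 CPM, and stood at 31.0, 33.2 and 27.7 CPM at 6h. It was 25.6, 30.2, 45.2 and 46.1 CPM at 1d and 28.5, 13.1, 32.5 and 32.3 CPM at 3d. All groups overlapped, and its values against NB were -0.38 ± 0.34, -0.16 ± 0.31 and -0.67 ± 0.31 at 6h, 1d and 3d (adjusted p = 0.595, 0.801 and 0.501). The NB library with the most Cxcl16 (B3) was also the NB library with the highest surface epithelium sum (34653 CPM), and 3d library 2 was the RPE library lowest in both (13.1 CPM and 10262 CPM). The part of such cells in the result was not tested.

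Cxcl10 in RPE was 0.943, 0.437, 0.941, 1.71 and 4.68 CPM in NB, and 0.505, 1.19 and 0.186 CPM at 6h. It was 1.104, 0.546, 1.54 and 1.90 CPM at 1d and 1.39, 0.220, 0.782 and 0.669 CPM at 3d. The groups overlapped, with NB B4 highest, and its values against NB were -0.82 ± 0.48, -0.13 ± 0.44 and -0.64 ± 0.44 at 6h, 1d and 3d (adjusted p = 0.386, 0.891 and 0.625). Cxcl12 ranged from 6.29 to 19.3 CPM in NB, 16.01 to 17.1 CPM at 6h, 9.12 to 19.5 CPM at 1d and 13.3 to 18.5 CPM at 3d. It too overlapped in all groups, with values of 0.31 ± 0.31, -0.09 ± 0.28 and 0.23 ± 0.28 (adjusted p = 0.648, 0.884 and 0.794).

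By limma, 0 of 5 members passed in RPE at 6h, 1 at 1d and 0 at 3d, against 1.46%, 5.61% (1.77% higher) and 0.180% of all 16712 genes. At an unadjusted p under 0.05 the counts were 1 (Vcam1), 2 (Vcam1 and Icam1) and 2 (Vcam1 and Cxcl16), and edgeR and DESeq2 gave 0, 1 and 0 adjusted calls each. None of 5 passed at 1d against 6h, where 3.39% of genes did, or at 3d against 1d, where 6.58% did. There the unadjusted counts were 0 and 1 (Icam1), edgeR gave 0 and 0 adjusted calls and DESeq2 0 and 1. With library totals, 81.0% of the genes called in RPE at 6h were higher, against 55.3%, and 37.1% at 1d against 6h, against 52.0%. Vcam1 within the shallower RPE libraries had a value of 1.13 at 1d (adjusted p = 0.0133). Within the deeper RPE libraries, where NB A1 is the only NB library, its value at 6h was 0.16.

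**Figure D3:**
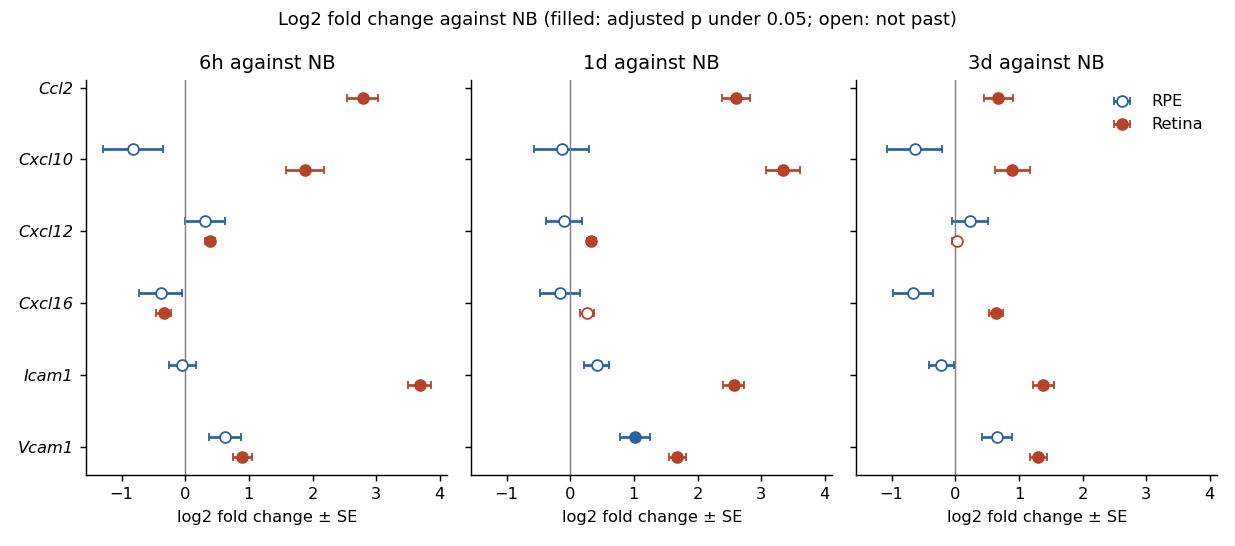
Log2 fold change against NB (log2 of CPM + 0.5, with SE) of each member at 6h, 1d and 3d in RPE and retina; filled points passed an adjusted p of 0.05. Icam1 and Cxcl10 sat near or below 0 in RPE at 6h (-0.05 and -0.82) and well above it in retina (3.68 and 1.88), while Vcam1 lay above 0 in both tissues at each time.

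Whether the responses differed between the tissues was tested as the RPE change against NB minus the retina change against NB, since the tables were normalized separately. Icam1 at 6h, 1d and 3d, and Cxcl10 at 6h and 1d, responded less in RPE than in retina. Their NB levels differed between the tissues, with means of 9.60 CPM in RPE and 0.660 CPM in retina for Icam1 and 1.74 and 0.164 CPM for Cxcl10. Which cells of the RPE libraries gave these NB reads was not tested. For Icam1 the difference was -3.73 ± 0.28 (adjusted p = 1.78e-10) at 6h, -2.15 ± 0.26 (adjusted p = 5.80e-07) at 1d and -1.61 ± 0.26 (adjusted p = 0.000181) at 3d. For Cxcl10 it was -2.71 ± 0.58 (adjusted p = 0.00179) at 6h, -3.48 ± 0.53 (adjusted p = 1.95e-05) at 1d and -1.54 ± 0.53 (adjusted p = 0.0558) at 3d. Cxcl16 differed at 3d, at -1.30 ± 0.34 (adjusted p = 0.0115), with a value of -0.67 in RPE and 0.64 in retina. For Vcam1 the difference was -0.27 ± 0.31, -0.67 ± 0.28 and -0.66 ± 0.28 at 6h, 1d and 3d (adjusted p = 0.597, 0.0886 and 0.128), and for Cxcl12 it lay between -0.43 and 0.21, with no call. Thus 2 of 5 members were called lower in RPE at each time, where 17.6%, 21.7% and 12.2% of 15105 genes were called (8.56%, 12.1% and 5.93% lower). With library totals, 17.1% of the genes called for the 1d response and 22.03% of those for the 3d response were higher in RPE, against 44.4% and 51.4%.

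Several of these tissue calls moved with the libraries used. With libraries of 1 depth set the Cxcl10 difference at 6h was -2.07 (adjusted p = 0.159), resting on NB A1 alone in RPE, and at 3d it was -1.76 (adjusted p = 0.0363). The 3d difference of Cxcl10 also passed with 0.1 CPM added (adjusted p = 0.0225) and without retina NB A2 (adjusted p = 0.0354), retina 3d library 3 (adjusted p = 0.0460), RPE NB A1 (adjusted p = 0.0344), RPE NB B1 (adjusted p = 0.0249) or RPE 3d library 1 (adjusted p = 0.0385). Without RPE NB B3, Vcam1 passed at 1d (-0.83, adjusted p = 0.0204) and 3d (-0.82, adjusted p = 0.0442), and Cxcl12 at 1d (-0.68, adjusted p = 0.0268). The Vcam1 difference at 1d passed as well with library totals (adjusted p = 0.0445), without RPE 1d library 1 (adjusted p = 0.0499) and without RPE 1d library 3 (adjusted p = 0.0366).

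Of 15 receptors and integrins that bind the members, 6 were tested in retina, where 1 was higher and 1 lower at 6h, 3 were higher at 1d and 4 higher at 3d against NB. These counts, and those of the retina lists below, stand beside 35.4%, 51.5% and 43.2% of all genes called at these times. The beta2 integrin chains, carried by leukocytes and microglia and binding Icam1, were higher late. Itgb2, the shared chain of LFA-1 and Mac-1, averaged 3.79 ± 0.762 CPM at 3d and 0.725 ± 0.290 CPM in NB (SD, n = 4 and 6), a log2 fold change of 1.83 ± 0.18 (adjusted p = 2.67e-07), and was also higher at 1d (1.00 ± 0.18, adjusted p = 0.000102) but not past at 6h (0.13, adjusted p = 0.638). Itgam, the partner chain of Mac-1, averaged 1.76 ± 0.217 CPM at 3d and 0.535 ± 0.241 CPM in NB (1.15 ± 0.22, adjusted p = 0.000399). Of the Vcam1 receptor VLA-4, Itga4 was higher at 1d (0.52 ± 0.11, adjusted p = 0.000557) and Itgb1, a chain found on most cell types, at 1d (0.33 ± 0.09, adjusted p = 0.00593). Itgb1 also had calls at 6h (0.28, adjusted p = 0.0342) and 3d (0.24, adjusted p = 0.0436), but they ended in 6 of 18 and 8 of 19 alternatives, 5 and 7 of these by leaving out 1 library. Libraries 1 and 3 at 6h and NB A1, A2 and B4 did so for 6h, and NB A1, A2, B2 and B4 and libraries 1, 3 and 4 at 3d did so for 3d, with adjusted p from 0.0533 to 0.202.

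Cxcr4, the signalling receptor of Cxcl12, was lower at 6h (0.627 ± 0.156 CPM at 6h and 1.38 ± 0.394 CPM in NB, SD, n = 3 and 6), with a log2 fold change of -0.72 ± 0.22 (adjusted p = 0.0175), a call that ended without 6h library 2 (adjusted p = 0.0932) and in the deeper libraries alone (adjusted p = 0.0519). At 3d it was higher (0.58 ± 0.20, adjusted p = 0.0283), but not without NB A2, B1 or B2 or without 3d library 1, 2 or 3 (adjusted p = 0.0534 to 0.0884). Ackr3, the scavenging receptor of Cxcl12, had no call in retina, with values of 0.27, -0.14 and 0.07 at 6h, 1d and 3d. In RPE, 11 of the 15 were tested. At 6h, 0 passed by limma or edgeR, 3 had an unadjusted p under 0.05 and DESeq2 called Itgb1, and at 3d 0 passed by any of the 3 tools, with 0 at an unadjusted p under 0.05. At 1d limma called Ackr3, and DESeq2 also called Itgb2 lower. Ackr3 stood at 24.7 ± 7.43 CPM at 1d and 53.2 ± 20.1 CPM in NB (-1.06 ± 0.26, adjusted p = 0.0229). That call ended without NB B2, 1d library 1 or 1d library 4 (adjusted p = 0.0538 to 0.0769) and with the 2 groups fitted alone (adjusted p = 0.0624). Ccr2, the receptor of Ccl2, was at 0.922 ± 0.378 CPM in NB RPE (SD, n = 5), with values from -0.03 to 0.25 across the 3 comparisons.

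**Figure D4:**
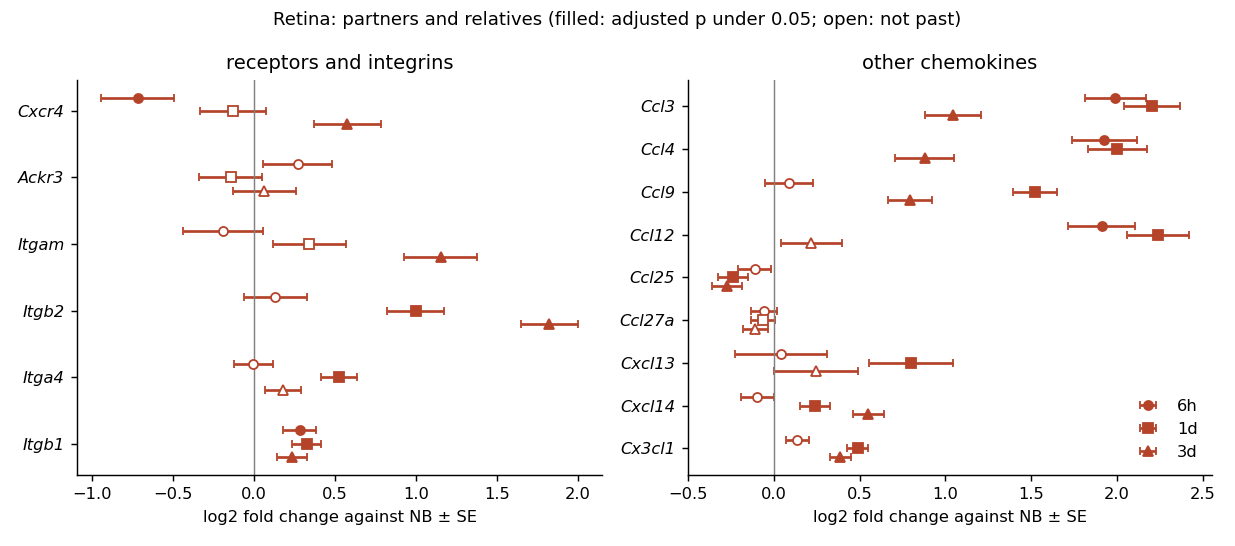
Log2 fold change against NB (with SE) in retina of the 6 receptors and integrins and the 9 other chemokines tested, at 6h (circles), 1d (squares) and 3d (triangles); filled points passed an adjusted p of 0.05. Itgb2 and Itgam moved furthest at 3d (1.83 and 1.15), whereas Ccl3, Ccl4 and Ccl12 were between 1.91 and 1.99 at 6h and at least 2.00 at 1d.

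Among 30 other chemokine genes, 9 were tested in retina: 3 rose at 6h, 7 rose and 1 fell at 1d, and 5 rose and 1 fell at 3d against NB. The inflammatory chemokines Ccl3 and Ccl4 and Ccl12, a mouse monocyte chemokine that binds Ccr2, were the 3 that rose at 6h. Ccl12 averaged 1.54 ± 0.120 CPM at 6h and 2.12 ± 0.631 CPM at 1d, and 0.0473 ± 0.0764 CPM in NB, with log2 fold changes of 1.91 ± 0.19 and 2.24 ± 0.18 (adjusted p = 4.27e-07 and 4.34e-09). At that NB level Ccl12 passed the filter on low values only through later groups. Ccl3 had values of 1.99, 2.21 and 1.04 and Ccl4 of 1.93, 2.00 and 0.88 at 6h, 1d and 3d, all past the threshold. Ccl9 rose at 1d (1.52 ± 0.13, adjusted p = 8.56e-09) and 3d (0.79, adjusted p = 6.30e-05). Cx3cl1, the neuronal chemokine read by microglia through Cx3cr1, rose by a smaller margin at 1d (0.49) and 3d (0.39 ± 0.06, adjusted p = 5.00e-05). In RPE, 2 of 9 passed at 1d, Ccl9 (1.43 ± 0.25, adjusted p = 0.0027) and Cxcl14 (1.01 ± 0.23, adjusted p = 0.0182, and 0.0646 without 1d library 1).

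Of 20 other adhesion genes of leukocyte traffic, 15 were tested in retina, of which 4 rose and 1 fell at 6h, 7 rose and 2 fell at 1d, and 9 rose and 2 fell at 3d. Of all genes, 35.4%, 51.5% and 43.2% were called in either direction at these times. Cd44, the hyaluronan receptor of leukocytes and reactive Muller glia, averaged 134 ± 20.1 CPM at 1d and 15.9 ± 4.39 CPM in NB, with log2 fold changes of 2.19, 3.07 and 1.73 at 6h, 1d and 3d. Mcam, of endothelium and pericytes, rose at each time (1.28, 1.03 and 0.76). Selplg, the selectin ligand borne by leukocytes and microglia, fell at 6h (-1.05 ± 0.20, adjusted p = 0.000386) and 1d (-1.38 ± 0.18, adjusted p = 2.77e-06) and was higher at 3d (0.53, adjusted p = 0.0230), and the junction molecule Jam2 fell at 1d (-0.92 ± 0.05, adjusted p = 7.61e-11). In RPE, where 16 were tested, the junction molecule Jam3 was lower at 1d (-1.099 ± 0.25, adjusted p = 0.0151). Madcam1, a mucosal addressin, averaged 2.20 ± 1.17 CPM at 1d and 0.291 ± 0.123 CPM in NB (1.66 ± 0.35, adjusted p = 0.0111).

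The cytokines and receptors listed as inducers of the members had 5 of 12 genes tested in retina, and 4 rose and 1 fell at each time. Lif, the leukaemia inhibitory factor of stressed Muller glia, averaged 48.0 ± 5.86 CPM at 6h and 0.718 ± 0.266 CPM in NB, with log2 fold changes of 5.34, 3.55 and 1.22 at 6h, 1d and 3d. Osmr, the oncostatin M receptor chain, had values of 3.51, 3.42 and 2.26, Tnfrsf1a, the main TNF receptor, of 2.23, 2.32 and 1.80, and Il1r1, the interleukin-1 receptor, of 1.00, 0.91 and 0.71, all past the threshold. Ifngr1, named after its values were seen, fell (-0.41, -0.46 and -0.33). In RPE, Osmr rose at 6h (1.39 ± 0.20, adjusted p = 0.0048, and 0.131 in the deeper libraries alone) and 1d (2.50 ± 0.18, adjusted p = 1.67e-06), and Tnfrsf1a at 1d (0.58 ± 0.13, adjusted p = 0.0133, and 0.0630 with the 2 groups fitted alone).

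Scavengers and proteases that remove or cut chemokines and adhesion molecules had 7 of 10 genes tested in retina, with 3 rising at 6h and 4 each at 1d and 3d. Of all genes, 16.9%, 24.0% and 19.3% were called higher at 6h, 1d and 3d. Mmp12, the macrophage elastase that trims chemokines, averaged 4.77 ± 1.43 CPM at 1d and 0.160 ± 0.103 CPM in NB (2.97 ± 0.20, adjusted p = 3.69e-10), with a value of 2.32 at 3d. Mmp2, which clips Cxcl12 and Ccl7, rose by 1.11 at 1d and 0.57 at 3d, and Ackr1, the chemokine-binding receptor of red cells and venules, by 0.34 and 0.26. The 6h calls of these genes (0.61, 0.28 and 0.17) each hung on single libraries. That of Mmp12 ended without any of the 6h libraries or NB A1, A2 or B4, that of Mmp2 without any of the 6h libraries or NB A2 or B2, and that of Ackr1 without 6h library 1 or 2 or NB A1, A2, B1, B2 or B3, with adjusted p from 0.0505 to 0.222. In RPE, 1 of the 9 tested was higher and 1 lower at 1d. Dpp4, a protease that cuts Cxcl10 and Cxcl12, was lower at 1d (-0.64 ± 0.15, adjusted p = 0.0162, and 0.0578 without 1d library 4). Mmp12 was higher at 1d (1.19, adjusted p = 0.0209) and 3d (1.93 ± 0.28, adjusted p = 0.00644). The 1d call of Mmp12 ended without 1d library 1 or 4 (adjusted p = 0.0711 and 0.0668) and with the 2 groups fitted alone (adjusted p = 0.0563).

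Markers of cells that make or answer these signals also moved in retina. Of 10 monocyte and macrophage markers 8 were read, all above 0 in each group, and their summed level was 19.9 to 30.9 CPM in NB, 30.2 to 37.1 CPM at 6h, 34.3 to 45.7 CPM at 1d and 111 to 128 CPM at 3d. Against NB 2 of the 8 rose at 6h (Cd68 and Cd14), 6 rose and 1 fell at 1d, and 8 rose at 3d, with a median log2 fold change of 2.42. The late rise of this sum came with that of Cxcl16, Itgb2 and Itgam, while Ccl2, Icam1 and Cxcl10 were highest before it. The list does not set monocytes that entered apart from resident macrophages and microglia, and which of these cells gave the reads was not tested. The 6 resting microglia markers summed to 36.9 to 43.8 CPM in NB, 29.3 to 38.9 CPM at 6h, 34.0 to 44.6 CPM at 1d and 83.6 to 98.5 CPM at 3d. The 6 genes did not follow this sum together. Against NB 2 were lower at 6h and 3 lower at 1d, and at 3d 2 were higher and 4 did not pass. Their median log2 fold change was -0.29, -0.53 and 0.27 at 6h, 1d and 3d. Of the 7 neutrophil markers Csf3r was read, at 2.00 to 4.37 CPM at 3d and 0.398 to 0.971 CPM in NB, and of the 8 T cell markers Lck, at 1.11 to 1.93 CPM at 3d and 0.749 to 1.93 CPM in NB. Lck was called higher at 1d, when Cxcl10 peaked (0.52 ± 0.20, adjusted p = 0.0379), but not in 8 of 19 alternatives, among them the shallower libraries alone, the 2 groups fitted alone and without NB A1, A2, B1 or B3 or 1d library 1 or 4 (adjusted p = 0.0506 to 0.145).

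The 8 endothelial markers summed to 284 to 315 CPM in NB, 281 to 298 CPM at 6h, 515 to 549 CPM at 1d and 539 to 628 CPM at 3d, and 6 of 8 rose at 1d and at 3d. Vwf and Kdr led, with 1.94 and 0.85 at 1d, so that the times with the highest Vcam1 also had the highest endothelial sums. The rod markers summed to 52682 to 60162 CPM in NB, 30701 to 37643 CPM at 6h, 15347 to 27136 CPM at 1d and 25819 to 30552 CPM at 3d, with 6 of 6 lower at 1d and at 3d. The Muller glia markers summed to 3528 to 4003 CPM in NB, 3145 to 3443 CPM at 6h, 2490 to 2843 CPM at 1d and 4379 to 4706 CPM at 3d, but the 6 genes did not move together: 2 rose and 2 fell at 6h, 3 rose and 2 fell at 1d, and 5 rose at 3d. Gfap, the filament protein of reactive glia, rose at each time (2.61, 4.13 and 3.15), and Glul, the abundant glutamine synthetase that weighs most in the sum, fell at 6h and 1d (-0.49 and -2.10). Of the red cell markers, the 3 read summed to 7.35 to 14.3 CPM in NB, 8.67 to 11.4 CPM at 6h, 11.7 to 32.9 CPM at 1d and 18.03 to 23.0 CPM at 3d, and all 3 rose at 1d and at 3d, though Hba-a1 at 1d did not pass without 1d library 4 (adjusted p = 0.0527). The 5 RPE markers read in retina summed to 224 to 338 CPM in NB, 367 to 498 CPM at 6h, 173 to 253 CPM at 1d and 247 to 399 CPM at 3d. At 6h, when Icam1 and Ccl2 were high, 4 of these 5 rose (Lrat, Ttr, Rdh5 and Tyr, at 0.75 to 1.11), of which Tyr did not pass without 6h library 1 or 3 (adjusted p = 0.226 and 0.0790). The part of these cell types in the members' changes was not tested.

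**Figure D5:**
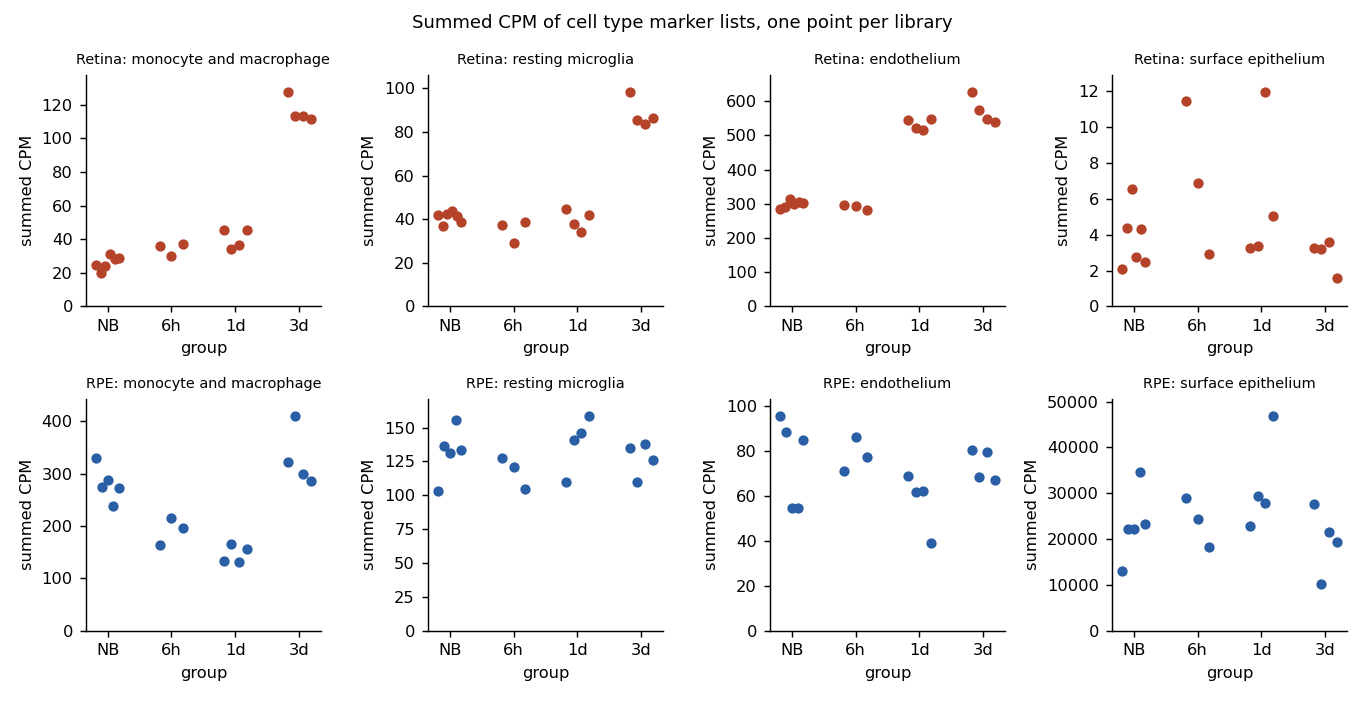
Summed CPM of 4 cell type marker lists, per library, in retina (upper row) and RPE (lower row), against sampling group. In retina the monocyte and macrophage sum stayed below 46 CPM to 1d and was 111 to 128 CPM at 3d, the endothelial sum was at least 515 CPM at 1d and 3d and below 316 CPM before, and in RPE the surface epithelium sum was 10262 to 46825 CPM.

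In RPE the macrophage sum ran the other way early, at 238 to 329 CPM in NB, 164 to 216 CPM at 6h and 130 to 165 CPM at 1d, and was 286 to 410 CPM at 3d. At 6h 0 of its 9 genes passed by limma or edgeR, 2 had an unadjusted p under 0.05 and DESeq2 called Csf1r. By limma Csf1r was lower at 1d while the other 8 did not pass, and Tyrobp and Lyz2 were higher at 3d (1.14 and 0.93). The median log2 fold change of the 9 genes was -0.26 at 6h, -0.06 at 1d and 0.50 at 3d. The lower sum at 1d was thus not shared by the list as a whole. The Lyz2 call ended in 9 of 18 alternatives, among them library totals, the shallower libraries, the 2 groups fitted alone and without NB A1, B1, B2 or B3 or 3d library 1 or 2 (adjusted p = 0.0551 to 0.158). The Tyrobp call ended in 4 of 18, with the 2 groups fitted alone and without NB B1 or 3d library 1 or 3 (adjusted p = 0.0540 to 0.0816). The endothelial sum was 38.9 to 68.6 CPM at 1d, when Vcam1 was called higher, and 54.6 to 95.4 CPM in NB. The RPE markers themselves summed to 9345 to 15686 CPM in NB, 5454 to 8080 CPM at 6h, 3709 to 7040 CPM at 1d and 9956 to 17600 CPM at 3d. At 1d 3 of the 6 were lower (Rpe65, Tyr and Lrat), with a median log2 fold change of -0.91 over the list. Rpe65, the visual cycle isomerase, was at -2.51 ± 0.27 (adjusted p = 4.30e-05) there, while the calls of Tyr and Lrat ended in 9 and 8 of 18 alternatives, 6 each by leaving out 1 library. NB A1, B1 and B2 and 1d libraries 2 and 4 did so for both, NB B4 for Tyr and 1d library 3 for Lrat (adjusted p = 0.0511 to 0.0920). Their part in the results was not tested.

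Within retina, Icam1 and Ccl2 had the highest likeness among pairs of members, with a Pearson r of 0.95 over log2(CPM + 0.5) in 17 libraries, followed by Ccl2 and Cxcl10 (0.88) and Cxcl10 and Vcam1 (0.80). Cxcl16 stood apart, with r from -0.31 with Cxcl12 to 0.51 with Vcam1. These figures describe libraries that fall into 4 groups and share their scaling. Among all other genes tested, the closest to Icam1 were Fosl1 (0.98), an AP-1 subunit, Adamts1 and Tcf7, and the closest to Ccl2 were Socs1 (0.97), an inhibitor of cytokine receptor signalling, Mtmr11 and Akap12. Cxcl10 was nearest to Gng4 (0.95) and Mapkapk3, and Vcam1 to Gnas (0.98), Serpina3n, an acute phase serpin, and Vwa5a. Cxcl16 was nearest to Rgs5 (0.94), a pericyte gene, and Cntn1, and Cxcl12 to Dgcr8 (0.90), Tgm1 and Amotl2. In 16 RPE libraries the nearest genes were Endod1, Vangl1 and Ppp1cb for Cxcl16 (0.96 to 0.97), Pros1, Adamts1 and Fgf2 for Vcam1 (0.87 to 0.93), Igsf9b, Edn3 and C1s1 for Cxcl12 (0.89 to 0.91), Snhg3, Gm45420 and Gm6363 for Icam1 (0.82 to 0.84) and Ces2e, Cnot4 and the interferon-induced Mx1 for Cxcl10 (0.78 to 0.82).

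The authors' deposited table, whose p-values come from a test against a minimum fold of unstated size, gave shrunken log2 fold changes in retina of 4.40, 3.27 and 1.90 for Icam1 and 6.86, 6.81 and 3.68 for Ccl2 at 6h, 1d and 3d. For Cxcl10 the authors' deposited table gave 3.02, 4.81 and 1.67 and for Vcam1 0.90, 1.71 and 1.33. After Benjamini-Hochberg adjustment here, the p-values of the authors' deposited table passed 0.05 for these 4 genes at 6h and 1d and for Icam1, Ccl2 and Vcam1 at 3d. No member of RPE passed in the authors' deposited table, where Vcam1 at 1d had a log2 fold change of 1.05 and an adjusted p of 0.172.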

How the data were processed

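Tissue RNA from retina and RPE was sequenced as stranded mRNA libraries, per the labels' protocols. The submitters' processing notes name Trimmomatic, STAR, edgeR and build GRCm38; the versions and the read counter are not given in the sources used here. The deposited values are a signal per gene and library, CPM on an effective library size set by the authors, per the file headers; all came out as whole reads within 0.01 read, in 100% of values, so depth could be recovered. The authors' log2 fold changes are shrunken, and the authors' p-values are unadjusted and test against a minimum fold, per the file headers. NB columns match the NB samples as a group only.

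Identifiers were matched to symbols with a table of gene names, leaving 6 retina and 7 RPE identifiers without one. log2(CPM + 0.5) was fitted with limma 3.58.1 (R 4.3.3, trend), all groups of a tissue together, over genes at 1 CPM or more in at least 3 libraries, with Benjamini-Hochberg adjustment over all genes tested and a threshold of 0.05. Genes below 1 CPM in all NB libraries could pass this filter only through later groups, which favours a rise against NB. The tissues were compared as the difference of their changes, since the tables were normalized separately. edgeR 4.0.16 and DESeq2 1.42.0 on the recovered reads, other scalings, pseudocounts of 0.1 and 2, no filter, libraries of 1 depth set, 2 groups alone, a replicate block and leaving out each library were alternatives. The fits were tested on simulated data. Intervals of read ratios are exact and conditional, and cover counting error only. Adjusted p-values without another tool named are limma's. Beside the members, all receptors and integrins tested are named, and of each other list the 4 genes with the smallest adjusted p in a comparison with NB; the genes most like a member are the 3 with the highest Pearson r; a few genes that these rules choose are not reported here. Members and lists were chosen with earlier results of these data known. Each library holds 1 mouse, and retina and RPE libraries were treated as coming from different mice. The 34 ATAC samples were not analysed here.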

Additional observations from a re-analysis of the deposited data

Results flagged for a closer look

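Cxcl10 in retina stood at 0.664 CPM in NB A2, the highest of the 6 NB libraries, with the nearest of the others at 0.138 CPM. Among 33 groups looked at in this way, chance alone marks about 1 in 20. Its log2 fold changes without that library are given above.

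The change against NB differed between the tissues, as RPE minus retina on the log2 scale, for Cxcl10 at 6h (-2.71) and 1d (-3.48), for Icam1 at 6h (-3.73), 1d (-2.15) and 3d (-1.61), and for Cxcl16 at 3d (-1.30), each by limma's test of the difference itself.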

How the results depend on the processing

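Of the counts of members called, 241 stayed within 1.5 times the reported count over all comparisons and alternatives, and 7 moved. With 2 CPM added, 3 members in place of 5 were called in retina at 3d. With the 2 groups alone, 0 in place of 1 was called in RPE at 1d, and leaving out 1 library gave 0 to 1 there (0 without 1d library 1 or 3). DESeq2 called 1 in place of 0 in RPE at 3d against 1d (Icam1). For the tissue difference, libraries of 1 depth set gave 1 in place of 2 at 6h, and leaving out 1 library gave 2 to 4 at 1d, with 4 without RPE NB B3. Leaving out 1 library gave 5 to 6 members in retina at 6h and 1d and 4 to 5 at 3d. Over single genes, 7854 values kept their call or lack of one, 89 gained a call and 185 lost it. Where either fit had a call, 0 changed sign. Sign changes without a call in either fit are among the 7854, such as Cxcl16 in RPE at 6h (-0.38, and 0.52 within the deeper libraries).

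Counts over all genes moved more in RPE. The 244 genes called at 6h ranged over 9 to 1250, the 937 at 1d over 537 to 1668, the 30 at 3d over 15 to 139, the 567 at 1d against 6h over 46 to 1662 and the 1100 at 3d against 1d over 363 to 1977. Those for the tissue difference ranged over 887 to 3756 around 2653 at 6h and 1322 to 3273 around 1842 at 3d. The highest RPE counts came from DESeq2. Leaving out 1 library moved the 6h count past 1.5 times for each 6h library (9, 442 and 17 without library 1, 2 and 3) and for NB A1, B1, B2 and B4 (1011, 41, 40 and 67). It did so at 1d for NB B2 (618) and B3 (1426), at 3d for 3d library 1 (16) and NB B1 (15) and B3 (18), at 1d against 6h for 1d libraries 2 and 4 (176 and 121) and 6h libraries 1, 2 and 3 (66, 184 and 46), and at 3d against 1d for 1d library 4 (447) and 3d libraries 2 and 4 (363 and 598). For the tissue difference it did so at 6h for RPE 6h library 3 (1536) and retina 6h library 3 (1738), and at 3d for RPE NB A1 (3273).

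Replicate numbers are shared by 6h, 1d and 3d. Deviations of same-numbered libraries of a tissue correlated between -0.54 and 0.28, and the numbers were not used to pair the samples in the main fits. With so few libraries per group, these correlations cannot exclude pairing. Retina and RPE libraries of the same number were not compared in this way. With a replicate block, 4 members each were called in retina at 1d against 6h and 3d against 1d and 0 each in RPE, and the 567 genes became 119. At the depth of NB retina libraries, Ccl2 and Cxcl10 rested on 2 and 24 reads.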
